A study of Homo sapiens with 6 samples.

Results

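The genes described here are 10 regulators that act on mTORC1: DDIT4, SESN1, SESN2, SESN3, TRIB3, DEPTOR, RRAGC, RRAGD, FNIP1 and FLCN. They were taken by gene symbol, and all 10 were found among the 18780 genes of the deposited table. RNA sequencing covered 6 libraries of the PC-3 line, human prostate cancer cells that were derived from a bone metastasis and grown here in DMEM/F12 medium with fetal bovine serum. In 3 libraries the cells had received 2.5 µM of trans-Gnetin H (TGH), which joins resveratrol units from plants into a trimer, and in the other 3 they had received dimethyl sulfoxide (DMSO) as control, all for 24 h. The study's title names glucose deprivation of advanced prostate cancer cells as its question. It rests on 1 cell line, 1 dose and 1 time, and the labels do not say whether the 3 libraries of a group came from separate cultures, so p-values measure only the spread between these libraries.

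mTORC1 is a protein kinase complex at the lysosome that promotes protein synthesis and growth and holds back autophagy when amino acids, growth factors and energy are plentiful. Growth factors reach it through AKT, the TSC complex and the small GTPase RHEB, and amino acids reach it through the Rag GTPases and their regulators GATOR1, GATOR2 and KICSTOR. Cells under nutrient or endoplasmic reticulum stress are known to transcribe inhibitors of this system, among them REDD1 (DDIT4), sestrin 2 and TRIB3, through the transcription factor ATF4. The 10 genes do not all restrain the kinase. RagC, RagD, folliculin (FLCN) and its partner FNIP1 are needed for the amino acid signal that recruits mTORC1 to the lysosome, and FLCN with FNIP1 is also required for mTORC1 to keep the lysosomal transcription factors TFEB and TFE3 out of the nucleus.

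Levels are given in TPM, a share of all transcripts scaled by transcript length so that genes can be set side by side. The listed genes summed to between 502380 and 518870 TPM per library, so part of the TPM total lies in transcripts that are not listed. Differences are TGH minus DMSO on the log2(TPM + 1) scale of the deposited table, which understates changes of low genes. limma was run across the 12018 genes that averaged 1 TPM or more, with Benjamini-Hochberg adjustment, and a gene was called where its adjusted p was under 0.05. DMSO replicates 1 and 2 listed 3074 and 3185 genes at 0, against between 1342 and 1530 in the other 4 libraries. Epithelial markers EPCAM, KRT8, KRT18, KRT19 and CDH1 were abundant, with a summed level of 1815 to 1900 TPM in DMSO and 1487 to 1503 TPM with TGH. Immune markers summed to at most 0.501 TPM and endothelial markers to at most 0.598 TPM in any library, and fibroblast markers, mostly COL1A1, to between 3.28 and 4.78 TPM.

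Of the 10 genes, 7 passed the level filter. TRIB3, SESN2, FNIP1, FLCN, RRAGC and DDIT4 rose with TGH, SESN1 was not called, and 0 were lower. In all tested genes 28.9% were called higher and 26.3% lower, 55.2% together. The median difference was 0.57 over the 7 tested genes and 0.02 over all genes tested. In each of the 6 called genes every TGH library lay above every DMSO library, a pattern found in 33.6% of all tested genes. In such bulk RNA, a different number of cells of some state and a different amount of transcript per cell cannot be told apart. SESN3, DEPTOR and RRAGD stayed under 1 TPM on average and have no call.

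**Figure D1:**
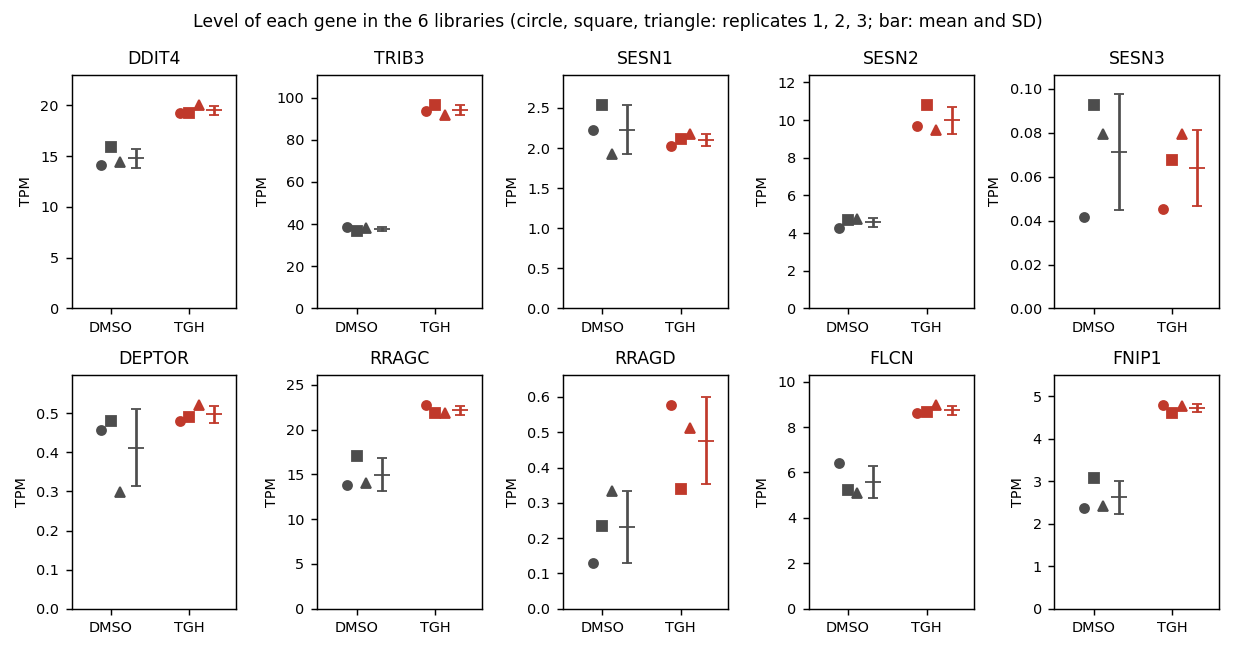
TPM of each of the 10 genes (vertical axes, from 0, scaled per gene) in the 3 DMSO and 3 TGH libraries (points), with the group mean and SD (bars). TRIB3 moves from between 36.6 and 38.7 TPM to between 91.7 and 96.4 TPM, while the SESN1 and SESN3 groups overlap.

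TRIB3 encodes a pseudokinase of the Tribbles family that can bind AKT and is a textbook target of ATF4 and CHOP. It was the most abundant of the 10 transcripts in both groups. DMSO replicates 1 to 3 held 38.7, 36.6 and 38.0 TPM, and TGH replicates 1 to 3 held 93.6, 96.4 and 91.7 TPM. The groups lay far apart, with little spread inside either. Its difference was 1.29 (SE 0.031, 95% confidence interval 1.22 to 1.37, limma adjusted p = 1.16e-06), the 114th largest in size of the 12018 genes tested. The other Tribbles genes were not called higher. TRIB1, a regulator of protein turnover, averaged 12.5 ± 1.07 TPM in controls and 13.5 ± 0.448 TPM with TGH (SD, n = 3 each) and was not called (0.11, adjusted p = 0.192), though it was called without DMSO replicate 1 (0.16, adjusted p = 0.0434). TRIB2, its close relative, fell by 0.21 (adjusted p = 0.012).

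DDIT4 encodes REDD1, which restrains mTORC1 through the TSC complex and answers hypoxia, glucocorticoids and energy stress. Its level was 14.1, 15.9 and 14.4 TPM in controls 1 to 3 and 19.2, 19.2 and 20.0 TPM in TGH libraries 1 to 3. The groups did not overlap, but the step was the smallest among the 6 called genes. The difference was 0.38 (SE 0.049, 95% confidence interval 0.26 to 0.49, adjusted p = 0.000847), which ranks 2450th in size among tested genes.

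The sestrins are stress proteins that bind GATOR2 and so hold back the Rag GTPases, and SESN2 is in addition a leucine sensor. SESN2 stood at 4.29, 4.68 and 4.74 TPM in DMSO replicates 1 to 3 and at 9.69, 10.8 and 9.48 TPM in TGH replicates 1 to 3. Every TGH library was thus far above the highest control. The mean went from 4.57 ± 0.245 to 9.99 ± 0.710 TPM, and the difference was 0.98 (SE 0.061, 95% confidence interval 0.83 to 1.12, adjusted p = 3.74e-05), the 236th largest. SESN1, known as a FOXO target, stood at 2.22, 2.54 and 1.93 TPM in controls and at 2.02, 2.11 and 2.17 TPM with TGH. All 3 TGH values fell inside the DMSO range, and the difference of -0.05 had a 95% confidence interval from -0.25 to 0.14 (adjusted p = 0.599). SESN3, another FOXO target, was nearly absent, between 0.0418 and 0.0926 TPM in DMSO and between 0.0454 and 0.0793 TPM with TGH. Its groups overlapped (exact permutation test, two-sided, p = 0.7, n = 3 each).

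Because TPM is scaled by length, the 3 sestrin transcripts can be summed, a sum formed after the values were seen. The sum was 6.87 ± 0.391 TPM in controls and 12.2 ± 0.713 TPM with TGH (SD, n = 3 each). SESN2 made up 65.5%, 64.0% and 70.3% of it in controls 1 to 3 and 82.4%, 83.2% and 80.8% in TGH libraries 1 to 3. The larger sum with TGH came with more SESN2 transcript, while the groups of SESN1 and of SESN3 overlapped.

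**Figure D2:**
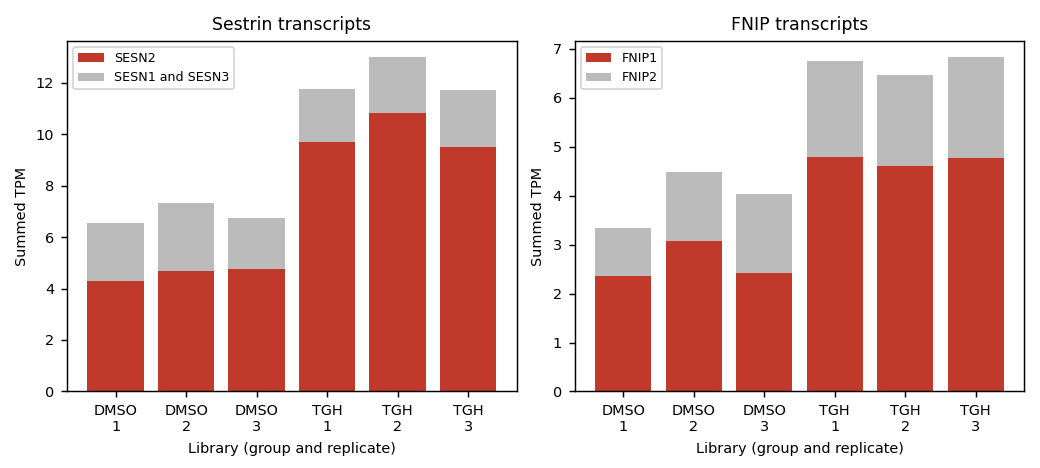
Summed TPM (vertical axes) of the sestrin transcripts (left) and the FNIP transcripts (right) in each library, with the part of SESN2 or FNIP1 in red and that of the other genes in grey. The red part of the sestrin bars grows with TGH from at most 70.3% to at least 80.8% of the bar.

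DEPTOR is a subunit of both mTOR complexes that inhibits the kinase. Its transcript was low, at 0.456, 0.480 and 0.298 TPM in DMSO replicates 1 to 3 and 0.481, 0.490 and 0.520 TPM in TGH replicates 1 to 3. All TGH values were above the controls, but TGH replicate 1 exceeded DMSO replicate 2 by less than 0.001 TPM. The exact permutation test gave p = 0.1 (two-sided, n = 3 each), the smallest p that 3 against 3 libraries allow. In the fit without the level filter, in which 36.7% of 18780 genes were called, the difference was 0.09 (95% confidence interval -0.05 to 0.22, adjusted p = 0.282).

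RagC and RagD are alternative partners of RagA or RagB in the heterodimer that docks mTORC1 on the lysosome. RRAGC, the gene of RagC, stood at 13.8, 17.1 and 14.1 TPM in DMSO replicates 1 to 3 and at 22.7, 21.8 and 21.9 TPM in TGH replicates 1 to 3. The control spread, set mainly by DMSO replicate 2, was smaller than the step between groups. The difference was 0.54 (SE 0.078, 95% confidence interval 0.36 to 0.73, adjusted p = 0.00127). RRAGD, for RagD, was low in all libraries, at 0.129, 0.233 and 0.333 TPM in controls and 0.576, 0.338 and 0.512 TPM with TGH. The lowest TGH value and the highest DMSO value nearly touched. RRAGD had p = 0.1 by the exact permutation test (two-sided, n = 3 each) and a difference of 0.26 without the level filter (95% confidence interval 0.05 to 0.47, adjusted p = 0.0613). RRAGC supplied at least 97.5% of the summed RagC and RagD transcripts in every library, so the transcript of RagC, not that of RagD, made up nearly all of this pair. Their partners RRAGA and RRAGB were not called, at -0.04 and 0.13 (adjusted p = 0.334 and 0.106).

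FLCN, the folliculin gene lost in Birt-Hogg-Dubé syndrome, encodes a GTPase-activating protein for RagC and RagD. It was at 6.40, 5.25 and 5.09 TPM in DMSO replicates 1 to 3 and at 8.60, 8.64 and 8.95 TPM in TGH replicates 1 to 3, with no overlap. The difference was 0.57 (SE 0.078, 95% confidence interval 0.38 to 0.76, adjusted p = 0.00102). FNIP1, whose product binds folliculin, went from 2.36, 3.07 and 2.43 TPM to 4.78, 4.61 and 4.77 TPM. The TGH libraries were nearly equal to each other, and the difference was 0.66 (SE 0.082, 95% confidence interval 0.47 to 0.86, adjusted p = 0.000652). FNIP2, the related gene with the same kind of product, was called higher at 0.35 (adjusted p = 0.0323), from 1.33 ± 0.318 to 1.96 ± 0.106 TPM. That call was lost without any 1 of the TGH libraries (adjusted p from 0.0648 to 0.0977) and against DMSO replicate 3 alone (0.19, adjusted p = 0.112). Together FNIP1 and FNIP2 went from 3.95 ± 0.577 to 6.68 ± 0.195 TPM (SD, n = 3 each).

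**Figure D3:**
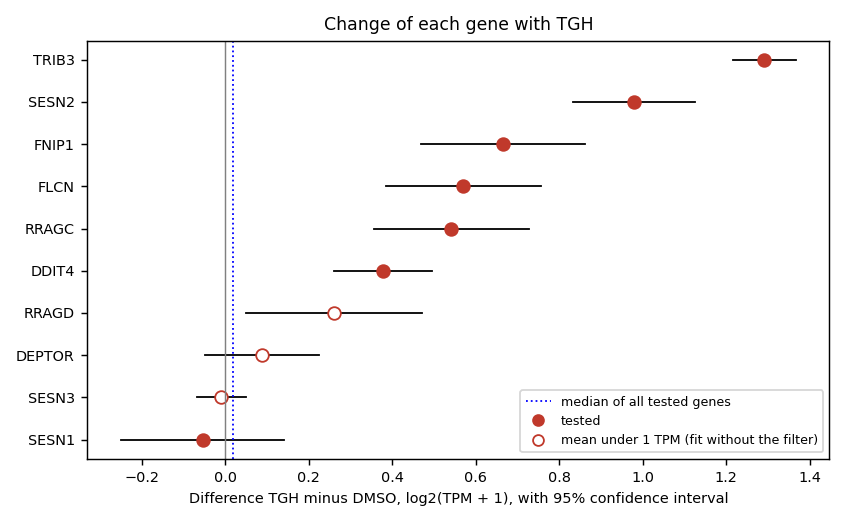
Difference TGH minus DMSO on the log2(TPM + 1) scale (horizontal axis) with its 95% confidence interval for each of the 10 genes, filled where the gene was tested and open where its mean was under 1 TPM. The 6 called genes lie between 0.38 and 1.29, to the right of the dotted median of all tested genes at 0.02.

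The 250 bases before the transcription starts of the 10 genes, where listed, were searched for letters that stress and lysosomal factors are known to read. Promoter sequences are those of RefSeq on GRCh38.p14 and serve only as sequence, since the expression values were made on hg19. The set of promoters used here covered 8 of the 10 genes, and DEPTOR and RRAGD were not searched. The searches covered both strands and the motifs TGATGNAA (ATF4 composite element), CACGTG (the E-box inside the CLEAR element of TFEB and TFE3), CCACG (second part of the endoplasmic reticulum stress element), TGTTTAC (FOXO) and TGACG (CRE core). CCACG and TGACG can each share letters with CACGTG. RRAGC and FNIP1 are shown because they are the ones among the 8 genes with CACGTG, which is in capitals, and SESN2 and TRIB3 because they changed most. The stretches are chr1:38859773-38860022 on the minus strand for RRAGC, chr5:131797018-131797267 on the minus strand for FNIP1, chr1:28259268-28259517 on the plus strand for SESN2, and chr20:381045-381294 on the plus strand for the first of 3 listed TRIB3 starts.
RRAGC: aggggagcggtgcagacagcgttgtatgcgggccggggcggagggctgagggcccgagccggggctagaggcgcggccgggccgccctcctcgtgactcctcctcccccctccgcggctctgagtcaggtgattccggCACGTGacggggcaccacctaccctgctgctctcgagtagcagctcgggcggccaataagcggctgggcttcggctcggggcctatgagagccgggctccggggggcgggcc
FNIP1: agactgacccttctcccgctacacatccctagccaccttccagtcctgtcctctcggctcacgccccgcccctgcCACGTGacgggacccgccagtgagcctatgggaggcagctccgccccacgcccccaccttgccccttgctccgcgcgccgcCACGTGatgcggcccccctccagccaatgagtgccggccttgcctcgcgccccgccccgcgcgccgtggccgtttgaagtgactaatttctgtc
SESN2: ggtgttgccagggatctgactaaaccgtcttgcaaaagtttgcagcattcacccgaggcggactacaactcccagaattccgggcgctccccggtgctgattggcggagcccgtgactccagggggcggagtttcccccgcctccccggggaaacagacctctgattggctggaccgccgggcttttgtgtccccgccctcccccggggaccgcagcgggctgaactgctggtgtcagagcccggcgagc
TRIB3: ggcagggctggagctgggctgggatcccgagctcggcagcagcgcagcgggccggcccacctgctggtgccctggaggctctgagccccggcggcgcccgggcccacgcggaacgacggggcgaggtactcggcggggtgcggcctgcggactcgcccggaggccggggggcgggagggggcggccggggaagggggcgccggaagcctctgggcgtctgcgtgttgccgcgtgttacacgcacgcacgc

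CACGTG occurred once before RRAGC and at 2 places before FNIP1, and 6.34% of 35116 promoter stretches of this length in the table hold it. Relative to the start, the RRAGC match covers positions -112 to -107, and those of FNIP1 cover -175 to -170 and -94 to -89. In both genes a CACGTG runs directly into TGACG, sharing letters with it, in the capitals and next 3 bases of the RRAGC line and of the first FNIP1 match. TGATGNAA, held by 3.14% of the stretches, and TGTTTAC, held by 2.98%, had 0 matches before any of the 8 genes. CCACG, held by 33.5%, occurred before DDIT4, TRIB3, FNIP1, SESN3 and 1 of 3 SESN1 starts, and TGACG, held by 21.2%, before RRAGC, FNIP1 and the same SESN1 start. SESN2 and FLCN had 0 matches to any of the 5 motifs. Such a match is a run of letters in this window and was not tied to binding.

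The order of levels changed at a few places. In DMSO it ran TRIB3 (37.8 TPM on average), RRAGC (15.0), DDIT4 (14.8), FLCN (5.58), SESN2 (4.57), FNIP1 (2.62), SESN1 (2.23), DEPTOR (0.412), RRAGD (0.232) and SESN3 (0.0713). RRAGC and DDIT4 overlapped there, as did FNIP1 and SESN1, and DEPTOR and RRAGD. With TGH the averages were 93.9 for TRIB3, 22.2 for RRAGC, 19.5 for DDIT4, 9.99 for SESN2, 8.73 for FLCN, 4.72 for FNIP1, 2.10 for SESN1, 0.497 for DEPTOR, 0.476 for RRAGD and 0.0640 for SESN3 TPM. SESN2 thus passed FLCN, and of all neighbours in the TGH order DEPTOR and RRAGD alone overlapped.

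Whether a gene responded differently from its paralog was examined as the difference of their log2(TPM + 1) values within each library, for the 3 pairs in which both genes were tested. SESN2 minus SESN1 came to 0.72, 0.68 and 0.97 in controls 1 to 3 and 1.82, 1.92 and 1.72 with TGH. The TGH values stand clear of the controls, a shift of 1.03. TRIB3 minus TRIB1 went from 1.52 ± 0.076 to 2.71 ± 0.079 (SD, n = 3 each), a shift of 1.19 that also left the groups apart. FNIP1 minus FNIP2 was 0.76, 0.75 and 0.40 in DMSO and 0.96, 0.98 and 0.92 with TGH. That shift of 0.31 was 0.19 without DMSO replicate 3. On the TPM scale the groups overlapped, with FNIP1 at 70.7%, 68.5% and 60.3% of the summed FNIP1 and FNIP2 level in controls 1 to 3 and at 70.8%, 71.4% and 69.9% with TGH, and with FNIP1 at 1.52 to 2.41 times the FNIP2 level in controls and 2.32 to 2.50 times with TGH. Each of the 3 shifts had p = 0.1 in the exact permutation test (two-sided, adjusted p = 0.1 over 3 pairs), the smallest p possible, so the design could not carry any of them past 0.05.

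Other genes of the pathway were taken from 11 lists of 101 tested genes, of which 50 were higher, 17 lower and 34 not called. The list counts here and below are to be read beside the shares over all tested genes, 28.9% higher and 26.3% lower. The list of AMPK and STK11 lay nearest to those shares. The lists are short, and no list was tested as a set. Of 7 tested subunits of the kinase complexes 3 were higher and 1 lower, with a median of 0.08. MLST8, a subunit of both complexes, rose by 0.25 (adjusted p = 0.00854), but with DMSO replicate 3 as the only control the call was lost (0.14, adjusted p = 0.0514). MTOR, the kinase, averaged 9.64 ± 0.314 TPM in controls and 10.3 ± 0.368 TPM with TGH (adjusted p = 0.133), and RPTOR, the substrate-binding subunit of mTORC1, was at 12.8 ± 0.330 and 12.5 ± 0.184 TPM (adjusted p = 0.564). AKT1S1, the mTORC1 inhibitor PRAS40, fell by 0.39 (adjusted p = 0.000225). RICTOR, which defines mTORC2, rose by 0.33 (adjusted p = 0.00125).

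In the arm on which REDD1 and TRIB3 act, 7 of 14 tested genes were higher and 5 lower, with a median of 0.04. The 3 subunits of the TSC complex, which turns RHEB off, all rose. TSC1 rose by 0.39 (adjusted p = 0.000681), TSC2 by 0.18 (adjusted p = 0.00555) and TBC1D7 by 0.71 (adjusted p = 0.000132), the last from 12.4 ± 1.07 to 20.8 ± 0.293 TPM. RHEB, the direct activator of mTORC1, averaged 92.8 ± 4.96 TPM in controls and 86.0 ± 2.80 TPM with TGH and was not called (-0.11, adjusted p = 0.0767), but it was called without DMSO replicate 1 (-0.14, adjusted p = 0.0336). AKT1, a kinase that inactivates the TSC complex, fell by 0.46 (adjusted p = 1.95e-05), and so did YWHAB, a 14-3-3 protein, by 0.46 (adjusted p = 1.97e-05).

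On the amino acid side, where sestrins and Rag regulators act, calls were scattered. Of 12 tested genes of GATOR1, GATOR2 and KICSTOR 5 were higher and 2 lower, with a median of 0.06. SEC13, which serves both GATOR2 and vesicle coats, rose by 0.29 (adjusted p = 0.000184), while SEH1L, shared by GATOR2 and the nuclear pore, fell by 0.22 (adjusted p = 0.000282). C12orf66, a KICSTOR gene, rose by 0.31 (adjusted p = 0.00324). Of 5 tested amino acid sensors and transporters, LARS, the leucyl-tRNA synthetase, rose by 0.38 and SLC38A9, the lysosomal arginine sensor, by 0.31 (adjusted p = 4.38e-05 and 0.00469), and 0 were lower. Among 7 tested Ragulator subunits and Rag partners 3 were higher and 1 lower. LAMTOR2, a scaffold subunit, rose by 0.29 (adjusted p = 0.00168), whereas the calls of LAMTOR1 (-0.07), LAMTOR3 (0.17) and LAMTOR5 (0.12) were lost under 9, 9 and 7 of 17 alternative settings. For LAMTOR1 and LAMTOR3 these include leaving out DMSO replicate 1 or 3 or any TGH library (adjusted p from 0.0531 to 0.128), and for LAMTOR5 leaving out DMSO replicate 2 or 3 or TGH replicate 1 or 2 (adjusted p from 0.0669 to 0.0757).

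The energy sensor AMPK, which sestrins are known to engage, had 3 of its 6 tested subunits higher and 1 lower. Its list of 9 tested genes, which adds the upstream kinase STK11 and 2 partners of that kinase, had 3 higher and 3 lower, with a median of -0.03. PRKAB2 and PRKAG2, regulatory subunits, rose by 0.36 and 0.28 (adjusted p = 0.000425 and 0.00108), and CAB39, a partner of STK11, fell by 0.22 (adjusted p = 0.00236). The subunit called lower was PRKAA1, a catalytic subunit, at -0.15 (adjusted p = 0.0197). STK11 itself was called lower at -0.17 (adjusted p = 0.0196), a call lost under 4 of 17 alternative settings. Among 15 substrates and readers of mTORC1 8 were higher and 3 lower, with a median of 0.12. EIF4EBP1, a repressor of cap-dependent translation and mTORC1 substrate, rose by 0.59 (adjusted p = 0.00149), from 97.2 ± 12.5 to 146 ± 3.29 TPM. Its paralog EIF4EBP2 fell by 0.66 (adjusted p = 1.63e-05), from 22.5 ± 0.567 to 13.9 ± 0.240 TPM, and EIF4E, the cap-binding protein that both bind, fell by 0.38 (adjusted p = 0.000894). RPS6KB1, the S6 kinase gene, was not called (-0.10, adjusted p = 0.163). ATG13, a subunit of the autophagy-starting ULK1 complex, rose by 0.42 (adjusted p = 0.000232).

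**Figure D4:**
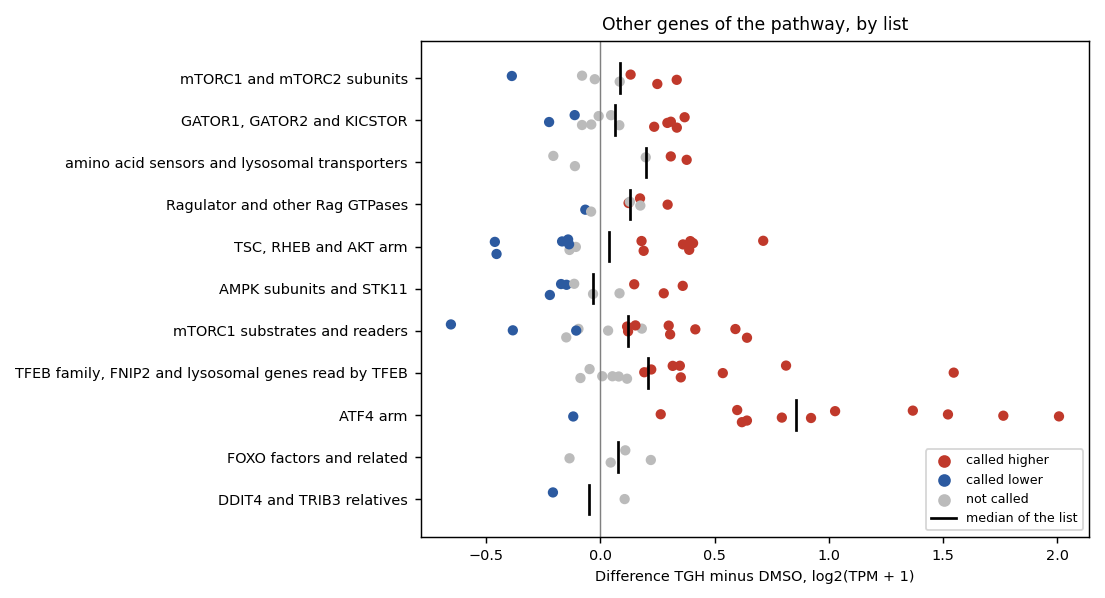
Difference TGH minus DMSO on the log2(TPM + 1) scale (horizontal axis) of each tested gene of 11 lists (rows), red where called higher, blue where called lower and grey where not called, with the list median as a black bar. The ATF4 list lies farthest to the right, with a median of 0.86, and the list of AMPK and STK11 has a median of -0.03.

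The factors known to read these genes differed among themselves. ATF4 rose by 0.60 (adjusted p = 1.58e-05), from 166 ± 6.53 to 252 ± 0.954 TPM, and 11 of 12 tested genes of its list were higher and 1 lower, with a median of 0.86. DDIT3, the stress factor CHOP, rose by 2.01, NUPR1, a stress-induced chromatin protein, by 1.76, and ASNS, asparagine synthetase, by 1.52 (adjusted p = 8.02e-07, 3.95e-06 and 1.36e-06). Of the TFEB family, TFEB, TFE3 and MITF were not called (0.08, -0.05 and 0.01, adjusted p = 0.782, 0.446 and 0.933), and TFEB itself ranged from 0.541 to 1.99 TPM over the DMSO libraries. In their list, which includes FNIP2 and lysosomal genes, 8 of 14 tested were higher and 0 lower, with a median of 0.21. WIPI1, an early autophagy protein, rose by 1.55, the sialidase gene NEU1 by 0.81, MCOLN1, a lysosomal calcium channel, by 0.54, and SQSTM1, an autophagy receptor, by 0.35 (the largest of these adjusted p was 0.000114). FOXO1, FOXO3 and FOXO4 were not called, and neither was MDM2, a ubiquitin ligase in the same list of 4 tested genes (adjusted p from 0.0546 to 0.619). FOXO4 was called higher under 4 of 16 alternative settings, among them without DMSO replicate 1 (0.29, adjusted p = 0.017). MDM2 was called lower under 4 of 17, among them without DMSO replicate 3 (-0.17, adjusted p = 0.0417).

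Likeness to a member was measured as Pearson's r over the 6 libraries, which mainly follows the step between the 2 groups. The genes most like SESN2 were VPS11 (r = 0.999), a subunit of lysosomal tethering complexes, LONP1 (0.998), a mitochondrial protease, and SSR2 (0.998), part of the translocon-associated complex. Those most like TRIB3 were C1orf85, HERC2P3 and DYSF (r above 0.999 for each), of which HERC2P3 is a pseudogene and can share reads with its relatives. AGAP5, NEURL and TJP1 were most like DDIT4 (r of 0.998 or more), and CLEC11A, BIN1 and LOC728190 most like RRAGD (0.993 to 0.999). RRAGD lies under the level filter, and CLEC11A and BIN1 were themselves not called (limma adjusted p = 0.0619 and 0.0509). An r above 0.95 was reached by 1040 genes with DDIT4, 1611 with SESN2, 1724 with TRIB3 and 55 with RRAGD, so the leading names are hardly set apart from many others.

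Level and control libraries were set beside these results. Among tested genes with a mean from 1 to under 10 TPM, where SESN2, FLCN, FNIP1 and SESN1 lie, 29.4% were called higher and 16.0% lower, with a median of 0.07. At 10 TPM or more 28.6% were higher and 35.2% lower, with a median of -0.03. Against DMSO replicate 3 alone, the control library with few zeros, the 6 called genes were all called again. The differences there were 1.28 for TRIB3, 0.93 for SESN2, 0.74 for FNIP1, 0.68 for FLCN, 0.62 for RRAGC and 0.41 for DDIT4, with the spread taken from the 3 TGH libraries, since 1 control has none. The epithelial marker sum was lower with TGH, with KRT8 at 594 to 620 TPM in controls and 423 to 426 TPM with TGH and KRT18 at 549 to 593 and 418 to 424 TPM, and EPCAM was lower in every TGH library too. CDH1 was higher in every TGH library, at 48.4 to 50.3 and 51.3 to 52.9 TPM, and the KRT19 groups overlapped. HOXB13, a prostate luminal marker, was at 28.9 to 30.6 TPM in controls and 19.0 to 20.8 TPM with TGH. The part of these markers in the results was not tested. GENCODE 29 lists antisense transcripts that overlap exons of DDIT4, SESN1, SESN3 and DEPTOR, and as it is not stated whether counting used strand, reads of either kind cannot be told apart there. It also lists other genes on the same strand that overlap exons of RRAGC, FNIP1 and FLCN, whose reads strand would not separate.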

How the data were processed

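From PC-3 cells, 6 RNA libraries (3 per group) were prepared with ribosomal RNA removal and a directional kit, per the labels' protocols. The authors deposited log2 values, log2(TPM + 1) per gene symbol and library, with an offset of 1 as the smallest value of 0 shows. hg19 is the genome build named per the submitters' processing notes. Which aligner, quantifier and annotation were used is not given in the sources used here. Read totals cannot be had from TPM, so library depth and the precision it gives are unknown, and whether counting used strand is not stated. Genes averaging 1 TPM or more were fitted with limma 3.58.1 in R 4.3.3 (moderated variances with a trend, two-sided, Benjamini-Hochberg adjustment over 12018 genes), a step tested on simulated data. The simulated data held far fewer changed genes than were called here, so that test does not cover a change this wide. Single values were compared by exact permutation with scipy 1.17.1.

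The members and lists were chosen with earlier results of these data known. The genes named are the 10 members, up to 4 genes per list with the smallest p, 11 fixed pathway genes, the paralog partners and the 3 genes most like each of DDIT4, SESN2, TRIB3 and RRAGD, and a gene named beyond this is said to be so. MITF, RRAGA, RRAGB and PRKAA1 were named after their values were seen. Of the paralog pairs planned, that with DDIT4L was not analysed here, and RRAGD with RRAGC and SESN2 with SESN3 had a gene under the filter. Protein sequences were not used here. Alternatives were other pseudocounts, filters, scalings and variance models, zeros as missing, a replicate block, DMSO replicate 3 as only control, and each library left out. A few genes that this rule selects are not reported here.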

Additional observations from a re-analysis of the deposited data

How the results depend on the processing

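Under all 17 alternatives the called genes among the 10 stayed TRIB3, SESN2, FNIP1, FLCN, RRAGC and DDIT4, 6 in number, except that a filter at a mean of 5 TPM removed FNIP1 and left 5. None was lower under any alternative. Over the 17 alternatives the difference ranged from 1.21 to 1.33 for TRIB3, 0.65 to 1.11 for SESN2, 0.38 to 0.68 for FLCN, 0.45 to 0.63 for RRAGC and 0.31 to 0.43 for DDIT4, and over 16 from 0.35 to 0.83 for FNIP1. The lowest value of each of these 6 genes came at a pseudocount of 5. SESN1 was not called under any of 16 alternatives, from -0.19 under quantile normalization (adjusted p = 0.0979) to 0.08 against DMSO replicate 3 alone (adjusted p = 0.39). The shift of SESN2 against SESN1 moved to 0.67 at a pseudocount of 5, which by construction shrinks low genes. Leaving out 1 library at a time gave 6 higher genes each time, and shifts of 0.98 to 1.12 for SESN2 against SESN1, 0.19 to 0.38 for FNIP1 against FNIP2 and 1.14 to 1.22 for TRIB3 against TRIB1. In the same runs 44 to 52 list genes were higher and 13 to 18 lower, and 2858 to 3535 of all genes were higher and 2557 to 3175 lower.

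Deviations from the group means correlated at 0.009, 0.054 and 0.228 between same-numbered DMSO and TGH libraries. Between differently numbered libraries the values ran from -0.158 to 0.096. Not every library correlated best with its own number, and these few values cannot decide whether the libraries were paired. With the replicate number as a block 6 of the 10 genes were higher and 0 lower, 48 list genes were higher and 15 lower, and 3273 of all genes were higher and 2958 lower. The paired shifts were 1.03, 0.31 and 1.19 for the pairs led by SESN2, FNIP1 and TRIB3, each with p = 0.25 by exact sign permutation, the smallest that 3 pairs allow. Without known depth, no limit of detection can be given for SESN3, RRAGD and DEPTOR.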
